A study of Homo sapiens with 12 samples.

Results

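The cytosolic chaperonin TRiC, also called CCT, is built from 8 related subunits, and the genes that encode them were TCP1, CCT2, CCT3, CCT4, CCT5, CCT6A, CCT7 and CCT8. They were taken by symbol from a table of 57773 gene IDs, all 8 were present, and all 8 were above the minimum mean of 10 in every comparison. TRiC is a double ring with every subunit once in each ring. It takes up newly made proteins from the ribosome or from the cochaperone prefoldin, closes over them by hydrolysing ATP, and releases them folded. Actins and tubulins are its best known clients, and as a cytosolic housekeeping complex it is made in nearly all cells, most of all in dividing ones.

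The RNA came from HEK293, a line made from human embryonic kidney and kept in 10% serum, and from its extracellular vesicles (EVs). All groups, controls included, had been lipofected for 48 h with 4EC1 vectors, written eGFP-EIF4E-C-YTHDF1/GBP1-CD9; cells without the vectors were not analysed here. The 4 groups were normoxia cells, hypoxia cells (24 h in a hypoxia chamber), normoxia EVs and hypoxia EVs, with 3 libraries each. TRIzol was used for the cells and a column kit, exoRNeasy midi, for the EVs, so the source of the RNA and the extraction method cannot be told apart. Whether replicates were separate cultures is not stated, and the p-values below measure no more than the spread between these libraries, which may be technical.

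Cell libraries held 18059381 to 23400813 reads and EV libraries 3259453 to 7001767. Values are normalised read counts, in the units of the deposited table, in which the authors had divided the reads of each library by a single factor. Of 7 HEK293 markers 5 were tested (the others were not analysed here), and all 5 were above 10 in the mean of every group. Markers of blood (8 genes) summed to 49.9 to 60.1 in cells, 168 to 301 in normoxia EVs and 282 to 396 in hypoxia EVs. Those of liver and plasma proteins (8 genes) summed to 41.8 to 88.6 in cells, 133 to 348 in normoxia EVs and 594 to 749 in hypoxia EVs. No marker of either list was at 0 in all 3 libraries of a group, and the part of these RNAs in the results below was not tested. EIF4E, YTHDF1 and CD9, genes that the vectors also carry, took 6.13% of the reads of normoxia cells, 7.09% in hypoxia, and 23.5% and 21.7% of those of the EVs.

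The 8 genes lie on 7 chromosomes (GENCODE 29, GRCh38), so no gene cluster ties them together. TCP1, the alpha subunit and founding member, is on chromosome 6 (159778498 to 159789749), CCT2, beta, on 12 (69585334 to 69601570), and CCT3, gamma, on 1 (156308968 to 156367873). CCT4, delta, is on chromosome 2 (61868089 to 61888804) as is CCT7, eta (73233420 to 73253021). CCT5, epsilon, is on 5 (10249921 to 10266412), CCT6A, zeta, on 7 (56051630 to 56063989), and CCT8, theta, on 21 (29055805 to 29073797). The 8 coding sequences differed little in length, from 1593 bases in CCT6A to 1668 in TCP1. Their main transcripts ran from 1916 bases (CCT7) to 3675 (CCT5), with a stretch after the stop codon of 146 bases in CCT7 and 1632 in CCT5. GC content was 51.2% in the CCT3 transcript, 51.8% in CCT7 and 43.1% to 44.7% in the other 6, against a median of 49.5% over 10258 coding genes.

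The first 250 bases upstream of 4 RefSeq starts (GRCh38.p14) are shown. CCT2 and CCT8 were taken as members with a large and the smallest fall in hypoxic cells. CCT3 was taken as the subunit that stood apart in EVs, and TCP1 for a heat shock motif. Capitals mark 4 motifs on either strand: the core GCGTG that hypoxia-inducible factors can bind, the box CCAAT, the ETS motif CCGGAAG and the heat shock element core GAANNTTC.
CCT2 (chr12:69585209-69585458, plus strand): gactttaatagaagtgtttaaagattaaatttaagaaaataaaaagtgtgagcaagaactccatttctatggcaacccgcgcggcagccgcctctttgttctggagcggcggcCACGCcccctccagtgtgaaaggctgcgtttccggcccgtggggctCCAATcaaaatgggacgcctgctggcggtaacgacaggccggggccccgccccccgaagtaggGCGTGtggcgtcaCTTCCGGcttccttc
CCT3 (chr1:156338293-156338542, minus strand): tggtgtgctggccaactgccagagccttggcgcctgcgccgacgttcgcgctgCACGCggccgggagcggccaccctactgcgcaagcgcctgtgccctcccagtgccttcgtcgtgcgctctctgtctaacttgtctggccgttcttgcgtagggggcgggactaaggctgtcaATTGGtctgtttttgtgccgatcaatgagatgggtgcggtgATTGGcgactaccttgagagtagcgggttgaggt
CCT8 (chr21:29073649-29073898, minus strand): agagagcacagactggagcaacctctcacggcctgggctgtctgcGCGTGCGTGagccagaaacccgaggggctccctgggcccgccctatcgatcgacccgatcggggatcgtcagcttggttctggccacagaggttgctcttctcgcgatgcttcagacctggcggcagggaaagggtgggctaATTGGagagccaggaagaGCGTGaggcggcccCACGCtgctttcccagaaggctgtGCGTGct
TCP1 (chr6:159789603-159789852, minus strand): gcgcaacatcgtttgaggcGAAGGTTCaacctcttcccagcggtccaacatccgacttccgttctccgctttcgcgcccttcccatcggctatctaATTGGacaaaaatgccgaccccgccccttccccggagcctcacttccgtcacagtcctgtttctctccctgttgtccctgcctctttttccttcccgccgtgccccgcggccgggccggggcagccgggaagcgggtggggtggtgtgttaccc
The RefSeq table held 9 start windows of 7 members, each of 300 bases (the 250 upstream and 50 downstream), and CCT6A was not among them. GCGTG stood in 7 of the 9 windows, those of CCT2, CCT3, CCT4, CCT8 and TCP1, against 36.5% of all 35116 windows. The match of TCP1 does not lie within the 250 bases shown. The alternative core ACGTG stood in none of the 9 (21.4% of all windows), nor did the E-box CACGTG, which contains it (7.26%). GAANNTTC was found in TCP1 and in the second CCT2 window (6.77% of all windows), TTCNNGAA in CCT4 (7.74%), CCGGAAG in CCT2 (10.3%) and CCAAT in 4 windows, of CCT2, CCT3, CCT8 and TCP1 (34.6%). The windows of CCT5 and CCT7 held none of these motifs. GC content was 56.8% to 69.2% in the 250 bases upstream of the 9 starts, and the shares over all windows are not matched for it. Start windows of 1 gene overlap or share their locus, and a match describes the letters only. Any link between the motifs and the levels was not tested.

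In normoxia cells CCT3 had the highest level per length of the 8. On the scale of reads per kilobase of exon with equal library totals (RPKM), CCT3 stood at 225 ± 4.53, CCT4 at 149 ± 3.30, CCT7 at 139 ± 1.58, TCP1 at 116 ± 3.03, CCT5 at 102 ± 2.02, CCT6A at 98.2 ± 2.20, CCT8 at 83.7 ± 5.20 and CCT2 at 71.0 ± 0.796 (SD, n = 3). Within this order CCT5 and CCT6A overlapped between libraries, and no other neighbours did. All 8 were abundant: among 19263 protein-coding genes ranked by this density, CCT3 was number 56 and CCT2, the lowest, number 346. In hypoxia cells CCT3 (167 ± 4.49 RPKM, rank 85) stayed first and CCT2 (48.3 ± 0.289, rank 560) last, and CCT7 and CCT4, at 114 and 112, overlapped. These levels divide by all annotated exons of a gene, and another length changes the order, as given for the shares below.

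Hypoxia against normoxia in cells was compared to see how low oxygen bears on the chaperonin's mRNAs. All 8 subunit mRNAs were lower in hypoxia, by a median of 0.53 on the log2 scale, and in none did the 3 hypoxia libraries overlap the 3 normoxia libraries. CCT6A and CCT2 fell the most, to 0.619 and 0.625 of the normoxia level, and CCT8 the least, to 0.794. Of all 17260 genes tested, 22.4% were called lower and 8.01% higher, 27.6% were lower with no overlap and 12.7% higher, and the median change was -0.07. Among the 1677 protein-coding genes with a mean of 1000 or more over the 12 libraries, a mean that all 8 members reached, 53.1% were called lower and the median was -0.17.

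TCP1, which names the t-complex polypeptide, stood at 5912, 6252 and 6524 in the normoxia cell libraries 1 to 3 and at 4407, 4139 and 4484 in hypoxia (log2 fold change -0.52, SE 0.05, limma adjusted p = 3.98e-12). CCT4, which like CCT5 can form rings by itself when made alone, went from 4556, 4388 and 4759 to 3021, 3172 and 3291 (-0.53, SE 0.06, limma adjusted p = 5.05e-12). CCT5, mutated in a hereditary sensory neuropathy, went from 6465, 6301 and 6618 to 4460, 4385 and 4520 (-0.54, SE 0.05, limma adjusted p = 4.99e-13). These 3 fell by nearly the same step, and their 95% normal intervals overlap widely.

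CCT3 held 9813, 9532 and 10065 in normoxia and 6346, 6853 and 6766 in hypoxia (-0.56, SE 0.05, limma adjusted p = 4.85e-14). CCT2, which has also been described as a receptor for autophagy of aggregates, held 3279, 3295 and 3409 and then 2053, 2077 and 2104 (-0.68, SE 0.06, limma adjusted p = 1.71e-15). CCT6A, which has a testis paralog, CCT6B, held 4023, 4195 and 4244 and then 2610, 2535 and 2568 (-0.69, SE 0.06, limma adjusted p = 2.2e-16). The hypoxia libraries of CCT2 and CCT6A lay within a few percent of each other, with coefficients of variation of 1.23% and 1.46%.

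CCT7 held 5221, 5376 and 5595 in normoxia and 4118, 4079 and 4030 in hypoxia (-0.40, SE 0.05, limma adjusted p = 7e-09). CCT8 held 2764, 3030 and 3315 and then 2393, 2483 and 2336 (-0.33, SE 0.06, limma adjusted p = 9.02e-06). CCT8 varied the most in normoxia, where its coefficient of variation was 9.08% against a median of 3.14% over the 8, and its lowest normoxia library (2764) still lay above its highest hypoxia library (2483).

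All 8 calls held with equal totals per library, where the median was -0.41, and with edgeR and DESeq2 on the recovered reads (median -0.45 in both). Equal totals move the median of all genes from -0.07 to 0.06 and the part of calls that are higher from 26.3% to 53.1%. With the spread estimated over all 12 libraries, EVs included, CCT2 alone was called, and the calls over all genes went from 5254 to 84. Together the 8 mRNAs made up 0.396% ± 0.000602 of all reads from normoxia cells and 0.299% ± 0.00192 from hypoxia cells (SD, n = 3). In bulk RNA, fewer cells that make an mRNA and less of it per cell cannot be told apart.

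**Figure D1:**
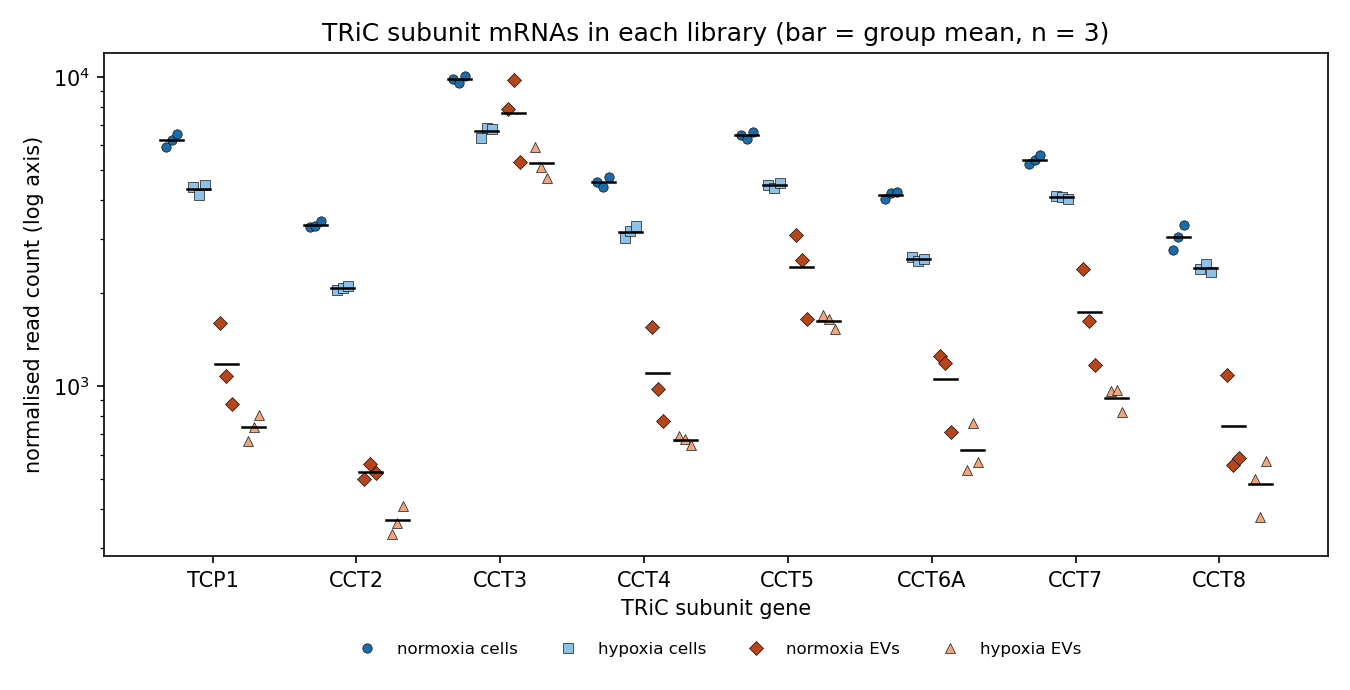
Normalised read count (log axis) of each TRiC subunit gene in each of the 12 libraries; points are libraries, bars are means of 3. Every subunit is lower in hypoxia cells than in normoxia cells with no overlap, and CCT3 is the subunit whose EV libraries (4706 to 9765) come closest to the cells.

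The balance of the subunits was examined as each one's share of the summed reads per kilobase of the 8, which a common fall does not change. In cells, 4 shares differed between hypoxia and normoxia without overlap, though shares of a fixed sum do not move independently. CCT2 went from 7.22% ± 0.0802 to 6.49% ± 0.0142 and CCT6A from 9.98% ± 0.217 to 8.89% ± 0.223. CCT7 went from 14.1% ± 0.151 to 15.3% ± 0.357 and CCT8 from 8.51% ± 0.526 to 9.71% ± 0.349 (SD, n = 3). Each had p = 0.1 in the exact permutation test, two-sided, the smallest that 3 against 3 can give (adjusted over 24 tests, 0.218). The shares of TCP1, CCT3, CCT4 and CCT5 overlapped, and CCT3 took 22.9% ± 0.474 in normoxia and 22.3% ± 0.690 in hypoxia.

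EVs were compared with cells to see which mRNAs the vesicles carry. All 8 subunit mRNAs were lower in EVs, but by very unequal amounts: CCT3 kept 78.3% of its cell level and CCT2 16.6%. In log2 terms the median of the 8 was -2.11, against 0.32 over the 24171 genes tested and -0.67 over the 1677 abundant coding genes. Of all genes 31.8% were called lower and 43.1% higher, and 21.3% were lower and 19.8% higher in all 6 EV libraries than in any of the 6 cell libraries. Of the abundant coding genes 63.1% were called lower and 19.4% higher. Among the members the call was made for 8, and 7 did not overlap, all but CCT3.

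CCT3 measured 7864, 9765 and 5322 in normoxia EVs 1 to 3 and 5935, 5091 and 4706 in hypoxia EVs (log2 fold change to cells -0.38, SE 0.13, limma adjusted p = 0.0119). Normoxia EV replicate 2 lay within the range of the normoxia cells, and the hypoxia EVs lay just under the hypoxia cells. CCT3 was number 85 of the 19263 coding genes by density in normoxia EVs and number 65 in hypoxia EVs, ranks much like those in cells.

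CCT5 was next, with 3073, 2553 and 1646 in normoxia EVs and 1703, 1646 and 1533 in hypoxia EVs, 37.1% of the cell mean (-1.46, SE 0.12, limma adjusted p = 2.44e-09). CCT7 held 2400, 1623 and 1169 and then 962, 973 and 822, 28.0% of the cell mean (-1.93, SE 0.13, limma adjusted p = 1.25e-10). CCT6A held 1256, 1191 and 713 and then 534, 760 and 570, 24.9% (-2.04, SE 0.13, limma adjusted p = 4.93e-11). In these 3 genes normoxia EV replicate 3 was the lowest of its group and, for CCT5 and CCT6A, fell among the hypoxia EVs.

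CCT4 held 1556, 976 and 770 in normoxia EVs and 692, 676 and 646 in hypoxia EVs, 22.9% of the cell mean (-2.17, SE 0.13, limma adjusted p = 2.1e-11). CCT8 held 1087, 557 and 586 and then 500, 379 and 575, 22.6% (-2.21, SE 0.15, limma adjusted p = 8.31e-11). For both genes normoxia EV replicate 1 stood well above the other 2 of its group.

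TCP1 held 1596, 1079 and 874 and then 665, 740 and 805, 18.2% of the cell mean (-2.50, SE 0.12, limma adjusted p = 1.78e-12). CCT2 held 500, 560 and 524 and then 334, 361 and 411, from 163 to 311 reads a library (-2.58, SE 0.10, limma adjusted p = 9.01e-14). In EVs CCT2 had the fewest reads of any member, except in normoxia EV replicate 2 (311, against 309 for CCT8). Still the EV and cell libraries of CCT2 lay far apart. The density rank of CCT2 went from 346 in normoxia cells to 2492 in normoxia EVs, and that of TCP1 from 158 to 1253.

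**Figure D2:**
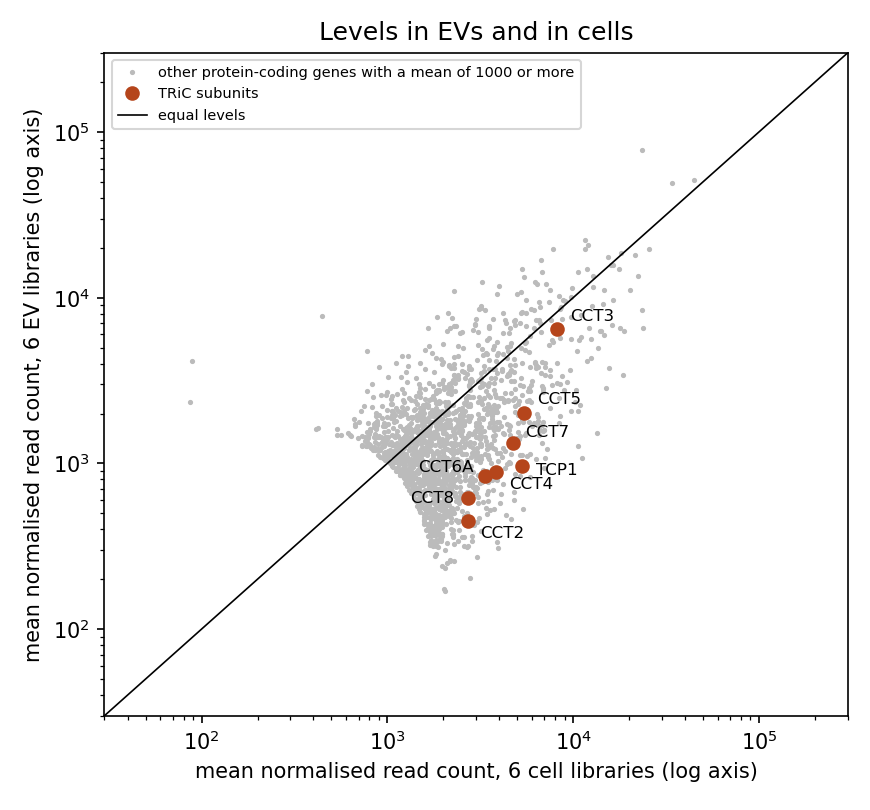
Mean normalised read count in the 6 EV libraries against that in the 6 cell libraries (both axes log) for protein-coding genes with a mean of 1000 or more (grey) and the 8 TRiC subunits (red); the line marks equal levels. CCT3 (8229 in cells, 6447 in EVs) lies near the line and the other 7 lie well under it.

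Within normoxia 7 members were called lower in EVs, against 27.2% of all genes lower (without overlap, 28.8% lower and 29.2% higher), with CCT3 at -0.40 (SE 0.18, limma adjusted p = 0.0634). Within hypoxia 7 were called as well, against 29.1% of all genes lower and 40.6% higher (32.1% and 46.0% without overlap), and CCT3 stood at -0.35 (SE 0.18, limma adjusted p = 0.0889). For the other 7 the change ran from -1.46 to -2.66 in normoxia and from -1.45 to -2.56 in hypoxia. Of the abundant coding genes 50.4% were called lower and 25.4% higher in normoxia, and 69.6% and 10.4% in hypoxia. The call for CCT3 depends on the scaling: with equal totals that leave out the 10 highest genes, which held 34.3% of all normoxia EV reads and 11.3% of the cell reads, it was 0.02 and not called, and with TMM factors it was -0.77. Those TMM factors move the median of all genes from 0.32 to -0.14, and the 7 other calls held under every scaling tried.

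CCT3 was first by density in cells already, and its lead was larger in the vesicles. It took 48.4% ± 4.86 of the TRiC read density in EVs and 22.6% ± 0.604 in cells (SD, n = 6 each), a gain of 25.8 points (p = 0.00216, exact permutation test, two-sided, 0.00866 when adjusted), and it was higher in 6 of 6 EV libraries. By library its share was 40.9%, 54.2% and 46.3% in normoxia EVs, 53.1%, 48.7% and 47.5% in hypoxia EVs and 21.6% to 23.4% in cells. CCT3 was thus about level with the sum of all others in EVs, and the groups lay far apart.

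TCP1 went from 11.9% of the density in cells to 5.85% in EVs, CCT4 from 15.1% to 9.32%, CCT2 from 6.85% to 3.23%, CCT6A from 9.44% to 6.38% and CCT8 from 9.11% to 5.56%, each without overlap (lower in 6 of 6 EV libraries, with the same p in the exact permutation test). CCT7 went from 14.7% to 10.8% with some overlap (p = 0.00433, exact permutation test, 0.0148 when adjusted). CCT5 took 10.3% ± 0.176 in cells and 10.4% ± 0.516 in EVs (p = 0.675, exact permutation test). Shares add up to a fixed sum, so the rise of CCT3 lowers the others by itself.

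With CCT3 left out of the sum, an alternative chosen after seeing the data, 3 of 7 subunits differed between EVs and cells. CCT5 was higher, at 20.3% ± 1.60 in EVs and 13.4% ± 0.259 in cells. TCP1 (11.3% against 15.3%) and CCT2 (6.30% against 8.85%) were lower (p = 0.00216 by exact permutation for all 3, 0.0152 when adjusted over 21 tests). CCT4 (adjusted p = 0.0568), CCT6A, CCT7 and CCT8 did not pass. Dividing by the length of the principal transcript in place of all exons gives CCT3 25.2% of the density in cells and 50.5% in EVs under normoxia, and puts CCT7 (15.6%) and TCP1 (13.8%) above CCT4 (10.0%) in normoxia cells.

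**Figure D3:**
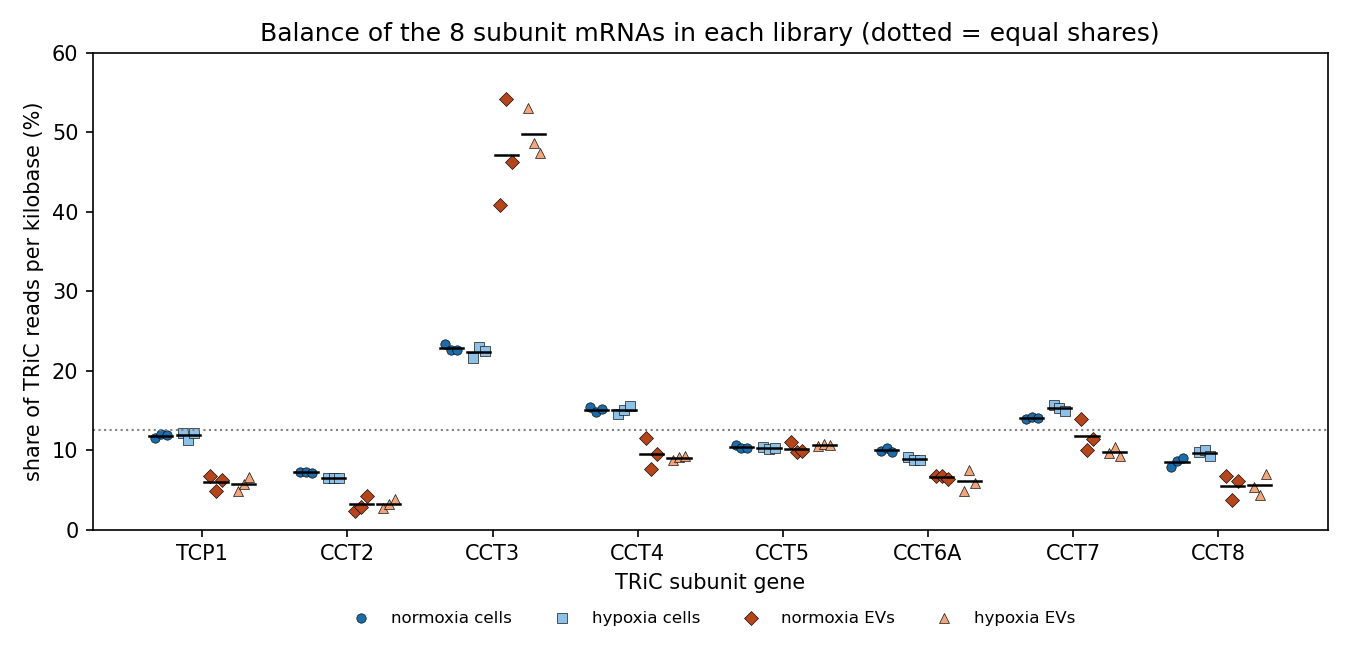
Share of each subunit in the summed reads per kilobase of the 8 (percent, axis from 0) in each of the 12 libraries; points are libraries, bars are means of 3, and the dotted line marks equal shares. CCT3 takes 40.9% to 54.2% in EVs and 21.6% to 23.4% in cells, while CCT5 stays near 10% in both.

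Reads from neighbours or copies of CCT3 were few. TSACC, a gene on the opposite strand within its span, had a mean of 44.5 ± 2.05 in cells and 17.9 ± 9.86 in EVs under normoxia, and the pseudogene CCT3P1 had at most 20 reads in a library. Of the reads of members and pseudogenes together, the 14 pseudogenes named after members held 0.536% to 0.767% in cell libraries. They held 0.431% to 2.75% in normoxia EVs and 1.87% to 3.34% in hypoxia EVs. How the counting placed reads that fit both a gene and its copy is not known here. CCT6P1, an unprocessed copy of CCT6A, was the highest, at 136 ± 7.96 in normoxia cells. SNORA20, a small nucleolar RNA inside TCP1, held 86.7 ± 21.2 in cells and 173 ± 44.4 in EVs under normoxia, and under hypoxia 87.0 ± 47.8 and 61.0 ± 17.1 (SD, n = 3). SNORA29, in the same gene, was listed at 0 in all 12 libraries. COMMD1 (108 ± 16.6 in normoxia cells) and ACAT2 (590 ± 15.0) lie on the opposite strand of CCT4 and TCP1. With the strand setting of the counting unknown, values of such pairs are uncertain.

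Hypoxia against normoxia in EVs asks whether the vesicles show the response of the cells. All 8 members had lower means in hypoxia EVs, but 2 were called: CCT7 (-0.85, SE 0.24, limma adjusted p = 0.0291) and CCT6A (-0.73, SE 0.24, limma adjusted p = 0.0494). The other 6 ran from -0.51 (CCT3) to -0.65 (CCT4), with limma adjusted p from 0.066 to 0.142. TCP1, CCT2, CCT4 and CCT7 did not overlap between the groups. Of the 27904 genes tested 6.62% were called lower and 5.68% higher, and 14.5% were lower and 23.4% higher with no overlap. These called shares depend on single libraries, as the counts that leave out 1 EV library show below.

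The members' median of -0.60 was close to that of the abundant coding genes, -0.73, of which 58.4% were called lower, while the median of all genes was 0.60. These values depend on the scaling, and the deposited totals were 8188530 to 8378680 in hypoxia EVs and 10292900 to 14144000 in normoxia EVs. The liver and plasma markers moved the other way from the members in these libraries, with summed levels of 594 to 749 in hypoxia and 133 to 348 in normoxia EVs, a median change of 1.80 over the 6 tested and 2 called higher; their part in the result was not tested. With equal totals no member was called, the median was -0.04, and CCT2 (0.05), CCT3 (0.06) and CCT5 (0.04) were level or higher. Other rescalings of the reads gave larger falls. The members' median was -0.79 with TMM factors (6 called), -0.69 with edgeR (4 called) and -0.76 with DESeq2 (6 called). In RPKM, which is set to equal totals, CCT3 stood at 153 ± 34.5 in normoxia and 158 ± 19.9 in hypoxia EVs, and CCT5 at 33.1 ± 5.10 and 33.7 ± 1.84. CCT2 stood at 10.1 ± 1.81 and 10.3 ± 1.11, and CCT7 at 38.2 ± 8.09 and 31.0 ± 2.70 (SD, n = 3).

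Normoxia EV replicates differed widely: the median coefficient of variation of the 8 members was 30.6% there, 10.0% in hypoxia EVs, and 3.14% and 2.30% in normoxia and hypoxia cells. Over coding genes with a mean of at least 500 it was 22.2%, 10.9%, 5.09% and 4.71% in the same groups. Without normoxia EV replicate 3 the test called 6 members and 10078 genes in all, against 3432 genes with all 6 libraries. Without any other EV library it called no member and 7 to 636 genes, so the members' counts moved with those of the whole table. In RPKM the EV order kept CCT3 first and CCT2 last, both apart from their neighbours, and every pair of neighbours between them overlapped except CCT4 (30.9 ± 6.93 RPKM) and CCT6A (21.6 ± 3.38) in normoxia and the same pair (28.7 ± 1.07 and 19.2 ± 3.50) in hypoxia.

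The difference of the hypoxia responses, EVs minus cells, was called for 0 of 8 members by limma, none of them at an unadjusted p under 0.05. With edgeR (1 at an unadjusted p under 0.05) and DESeq2 (0) none was called either. Of all genes 0.443% were called higher and 1.87% lower. Among the abundant coding genes 0.0596% were called higher and 12.7% lower. Their median difference was -0.56, beside -0.08 for the members. CCT7 differed the most, by -0.45 (SE 0.26, 95% normal interval from -0.96 to 0.06, limma adjusted p = 0.32). For CCT3 the difference was 0.05 (interval -0.45 to 0.55), and for CCT5 0.01 (-0.47 to 0.49). Intervals this wide would hold a response in EVs well above or below that in cells. Without normoxia EV replicate 3, CCT7 was called at -0.70, in a fit that called 5438 genes in place of 559. The sign turned under at least 1 other scaling or count test in 7 of 8 members, as with TCP1 (-0.12, and 0.32 with equal totals).

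**Figure D4:**
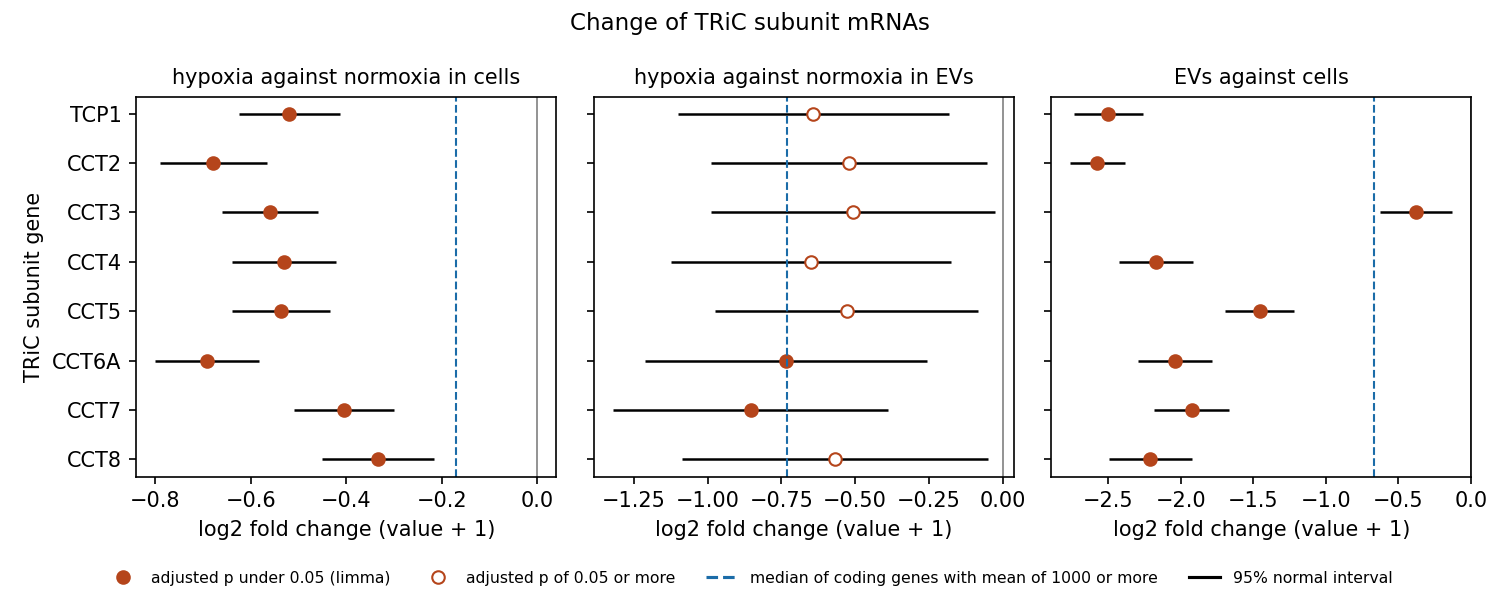
Log2 fold change of each subunit (value + 1) in 3 comparisons, with bars of the 95% normal interval, filled points where the limma adjusted p is under 0.05, and a dashed line at the median of coding genes with a mean of 1000 or more; each panel has its own axis. In cells all 8 lie below that line (-0.17), in EVs most lie above it (-0.73), and for EVs against cells CCT3 (-0.38) lies above it (-0.67) and the other 7 below.

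Over the 12 libraries the 28 pairs of members had a median Pearson r of 0.975 of log2(value + 1), as a description of points that share the gap between cells and EVs. The 7 others kept r of at least 0.954 among themselves, and CCT3 had 0.611 to 0.779 with them. The 5 coding genes most like the mean of the members, of 10251 ranked, were EIF3E (r = 0.998), KPNB1, DHX9, GOT2 and XRCC5 (all 0.998). EIF3E, a subunit of a translation initiation factor, had means of 2707 (normoxia) and 1811 (hypoxia) in cells, and of 485 and 258 in EVs.

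The genes that work with TRiC gave a mixed picture in hypoxic cells, where 22.4% of all genes and 53.1% of the abundant coding genes were called lower. In counts of these lists, here and below, fell, rose, lower and higher mean called at a limma adjusted p under 0.05. Of prefoldin, the hexamer that hands it actin and tubulin, 5 of 6 subunits fell, among them PFDN6 (from 264 ± 18.7 to 152 ± 22.1, log2 -0.80, limma adjusted p = 1.2e-06), PFDN5 (-0.32) and PFDN1 (-0.36), and with equal totals 1 of 6 was called. Of the phosducin-like cofactors, which assist it on some clients, TXNDC9 fell (-0.40) and PDCL rose (0.27) of 3 tested. Of the tubulin cofactors, which take tubulin on from TRiC, 2 of 5 tested fell, TBCA and TBCD (both -0.27), and none with equal totals.

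Of the clients, 2 of 3 actins tested fell, ACTG1 (17959 ± 980 to 12854 ± 307, -0.48) and ACTB (24395 ± 1079 to 18862 ± 1178, -0.37). Tubulins split: 3 of 12 fell, TUBA1C (-0.88) and TUBB (-0.49) in front, and 2 rose, among them TUBA1A (0.38); with equal totals 4 were called higher and 2 lower. Of 12 other clients 7 fell and none rose, with PLK1, a mitotic kinase (-0.48), CDC20, which activates the anaphase-promoting complex (-0.39), and RPTOR, a part of mTOR complex 1 (-0.31), in front; with equal totals 4 were lower and 2 higher. Actin, tubulin and heat shock genes have near-identical copies, so their values are uncertain.

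The cytosolic heat shock partners fell in 7 of 9, with HSPA8, the constitutive HSP70 (19888 ± 659 to 9412 ± 457, -1.08, limma adjusted p = 6.5e-28), HSP90AB1 (-0.72) and HSPH1, a nucleotide exchange factor of HSP70 (-0.82), in front, and 7 fell with equal totals too. HSF1, the heat shock transcription factor, named after its values were seen, stood at 961 ± 33.7 and 945 ± 35.8 (-0.03, limma adjusted p = 0.83). Both genes of the mitochondrial chaperonin fell, HSPD1 (-0.43) and HSPE1 (-0.86). Among chaperonin-like genes MKKS fell (-0.64), 1 of 4 tested. The median change was -0.64 for the mitochondrial chaperonin, -0.53 for TRiC, -0.46 for heat shock partners, -0.37 for actins, -0.37 for chaperonin-like genes and -0.34 for prefoldin. It was -0.21 for other clients, -0.17 for tubulin cofactors, -0.10 for tubulins, -0.09 for phosducin-like cofactors and -0.07 for all genes. Called or not, every gene tested had a negative change in prefoldin, tubulin cofactors, actins, chaperonin-like genes, mitochondrial chaperonin and heat shock partners. Other clients, tubulins and phosducin-like cofactors had changes of both signs.

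**Figure D5:**
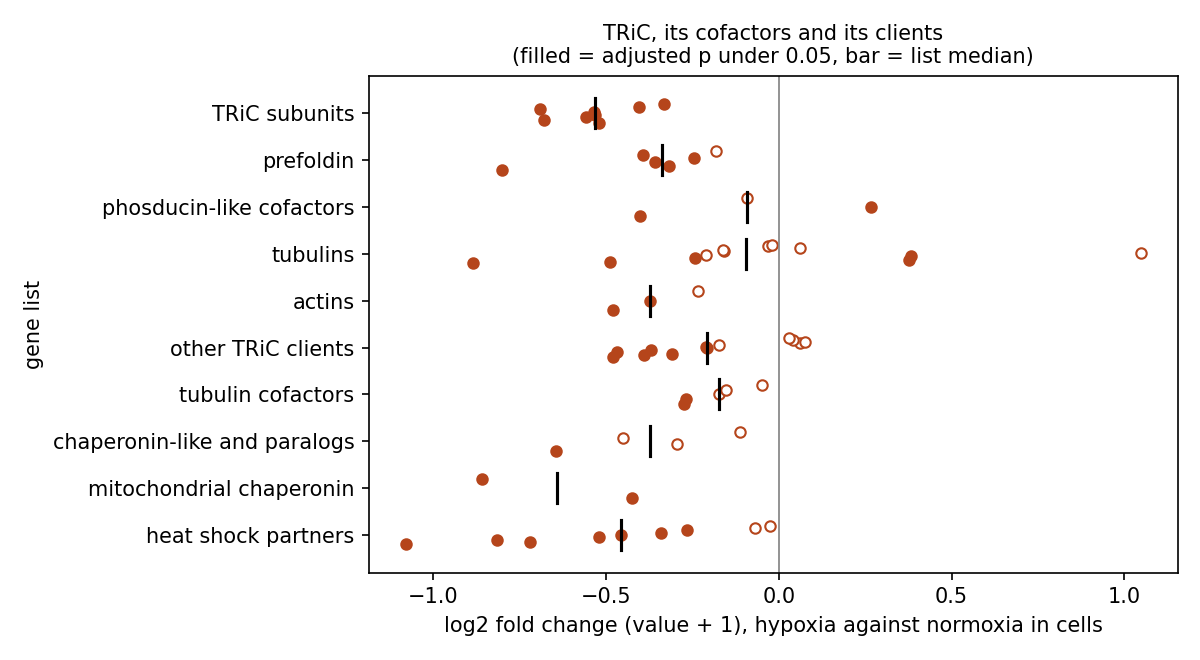
Log2 fold change (value + 1) of hypoxia against normoxia in cells for TRiC and 9 lists of its cofactors, clients and related chaperones; each point is a gene, filled where the limma adjusted p is under 0.05, and bars are list medians. All 8 TRiC genes lie below 0 and are filled, while tubulins lie on both sides.

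In EVs against cells, where 31.8% of all genes were called lower and 43.1% higher, the partners also gave a mixed picture. Among the abundant coding genes these shares were 63.1% and 19.4%. Of prefoldin 5 of 6 were lower, VBP1 (-1.91), PFDN6 (-2.56) and PFDN1 (-1.03) among them. The TUBA1A (-2.35), TUBA1B (-2.56) and TUBB (-2.55) mRNAs were lower by steps like those of most TRiC subunits, 6 of 12 tubulins in all, while 3 were higher. Of actins 2 of 4 were higher, ACTA2 (0.64) and ACTC1 (2.27), and ACTB was lower (-0.32). ACTC1 was very low, at 8.15 ± 7.17 in normoxia cells and 2.14 ± 2.38 in hypoxia cells. In EVs it stood at 23.8 ± 32.3 and 51.7 ± 24.8 (SD, n = 3). It reached the minimum mean of 10 only through the EVs, so its call carries little weight. Of the tubulin cofactors TBCC (1.64) and TBCA (0.73) were higher and ARL2 lower (-1.12). Heat shock partners were lower in 5 of 9, such as HSPA4 (-1.95) and HSPH1 (-1.90), and higher in 2, DNAJB1 (1.75) among them. HSPD1 (-2.79) and HSPE1 (-2.99) were lower. Of 3 phosducin-like cofactors tested 1 was lower and 1 higher, and of 5 chaperonin-like genes 2 were lower and 2 higher. Other clients were lower in 4 of 12, HDAC3 (-1.38), GNB1 (-0.96) and VHL (-0.58) in front, and 1 was higher. These splits depend on the scaling: with TMM factors 10 other clients were lower and 0 higher, and with equal totals without the 10 highest genes 2 were lower and 4 higher. Tubulins went to 7 lower and 3 higher with the first and to 5 and 5 with the second, while 5 prefoldin subunits and both mitochondrial chaperonin genes were lower with each.

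Hypoxia in EVs gave calls in the partners at the same scale as in TRiC. Called lower were 1 of 6 prefoldin subunits (PFDN2, -0.87), 5 of 12 tubulins (TUBB4B at -0.85, TUBB2B at -0.86 and TUBA1B at -0.80 in front), 5 of 12 other clients (PLK1 at -0.86, CDC20 at -0.78 and FZR1 at -0.77 in front) and 2 of 5 tubulin cofactors (TBCA and TBCC, both -0.90). Also lower were 6 of 9 heat shock partners (HSPA4 at -1.14, HSF1 at -0.95 and DNAJA1 at -0.86 in front) and HSPD1 (-0.93). The 4 actins, 3 phosducin-like cofactors and 5 chaperonin-like genes tested gave no call. No gene of these lists was called higher. Of the abundant coding genes 58.4% were called lower in this comparison, beside 6.62% of all genes, and the counts of these lists lie near or below the first share. With equal totals 2 heat shock partners were called lower, and 1 tubulin and 1 other client higher.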

How the data were processed

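Builds hg38 and GRCh38 and the tools DESeq2 1.30.1 and Bowtie 0.12.2 appear in the submitters' processing notes. Which counter, annotation and strand setting were used is not given here. Libraries came from a stranded total RNA kit, per the labels' protocols. The deposited table holds a signal per gene. Its values show that the authors divided reads by 1 factor per library: 100% were whole multiples of a step, within a tolerance of 0.01. Reads recovered that way were 18059381 to 23400813 in cell and 3259453 to 7001767 in EV libraries. A read was worth on average 0.512 (normoxia) and 0.527 (hypoxia) units in cells, and 2.04 and 1.79 in EVs.

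The 8 members, the gene lists and the tests were chosen with earlier results of these data known. Groups came from sample titles. Values were tested as log2(value + 1) with limma-trend (R 4.3.3, limma 3.58.1) for genes whose mean in the fit's libraries reached 10, with Benjamini-Hochberg adjustment over all genes and a threshold of 0.05. Hypoxia was compared within 6 cell and within 6 EV libraries; EVs against cells and the interaction used all 12. Fold changes on this scale understate low genes. On simulated data, changes of 0.5 and 1 (log2) were recovered in 79.3% and 100% of genes for cells, 0.926% and 29.3% for hypoxia in EVs, and 38% and 89.1% for EVs against cells. False calls numbered 13, 0 and 10. The changed genes were drawn at many levels, with the same starting mean in all groups, so these shares are not the recovery for the 8 members.

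Shares of TRiC read density were tested with exact two-sided permutation tests (scipy 1.17.1), adjusted over 24 tests. Positions and lengths are from GENCODE 29, which held 52338 of the 57773 IDs. Promoters are from RefSeq on GRCh38.p14, matched by symbol. All members were named, and of each list up to 3 genes with the smallest p in a comparison; HSF1 in cells and the pseudogenes and neighbours were named after their values were seen. Alternatives were a pseudocount of 0.5 or 5, filtering at a mean of 50 or not at all, equal totals, equal totals without the 10 highest genes, TMM factors, edgeR 4.0.16 and DESeq2 1.42.0 on recovered reads, other libraries in the fit, the replicate number as a block, and leaving out each replicate.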

Additional observations from a re-analysis of the deposited data

How the results depend on the processing

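No member was called higher under any setting in any of the comparisons. In cells, 8 were called under all settings but the fit over all 12 libraries, which called 1. For EVs against cells 7 or 8 were called under every setting, also within normoxia and within hypoxia. For hypoxia in EVs the 2 calls became 1 with a pseudocount of 0.5 or no filter, 4 with a pseudocount of 5 or edgeR, 6 with TMM factors or DESeq2, 0 with equal totals with or without the 10 highest genes, 8 in the fit of all 12 libraries, and 0 to 6 leaving out a replicate; the cause was not tested. Calls over all genes moved as well, from 3432 to 2358 and 2734 (pseudocount of 0.5, no filter), 5311 and 3503 (pseudocount of 5, edgeR), 4364 and 4542 (TMM factors, DESeq2), 4592 and 3145 (equal totals, and without the 10 highest genes), 8238 (all 12 libraries) and 7 to 10078 (leaving out a replicate). For these EV libraries, which held few reads, the part of all calls that are higher was 46.2%, and 95.9% with equal totals or 25.6% with TMM factors. The difference of responses gave 0 calls, and 0 to 1 leaving out a replicate.

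The deviations of same-numbered libraries had no common correlation, with r from -0.117 to 0.0614. With so few libraries in a group, and few reads in the EV libraries, these values cannot show whether same-numbered samples were paired. Whether they shared a culture is not stated, so the main tests treated the libraries as unpaired. With the replicate number as a block, 5 members were called for hypoxia in EVs and the other counts of calls did not change. Paired differences of the shares, with 3 or 6 pairs, gave 0 calls in place of 7; so few pairs cannot pass the threshold over 24 tests, so this says nothing about stability, and the differences themselves were the same. CCT3 left out of the sum gave 3 calls.

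Some directions turned. With equal totals, hypoxia in EVs gave 0.046 for CCT2, 0.060 for CCT3 and 0.039 for CCT5. Equal totals without the 10 highest genes gave CCT3 0.025 for EVs against cells and 0.19 in hypoxia. The difference of responses, with equal totals and then also without the 10 highest genes, was 0.32 and 0.16 for TCP1, 0.32 and 0.16 for CCT4, 0.40 and 0.24 for CCT6A, and 0.21 and 0.050 for CCT8. With TMM factors it was -0.025 for CCT2, -0.13 for CCT3 and -0.18 for CCT5, with edgeR -0.073 for CCT3 and -0.11 for CCT5, and with DESeq2 -0.021 for CCT5. The change of share of CCT5 between EVs and cells was -0.044 points with plain reads and -0.177 with principal transcript lengths, and that of CCT8 in EVs -0.00898 and -0.00133. Without CCT3 in the sum, changes were 0.224 for CCT6A and 1.90 for CCT7 (EVs against cells), -0.0417 for TCP1 (cells), 0.193 for TCP1 and 0.12 for CCT4 (EVs).

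Leaving out a replicate turned the sign of the difference of responses in 6 members: it ran from -0.32 to 0.12 for TCP1, -0.19 to 0.25 for CCT3, -0.35 to 0.16 for CCT4, -0.25 to 0.20 for CCT5, -0.30 to 0.11 for CCT6A and -0.41 to 0.075 for CCT8. Changes of share in EVs, in points, ran from -0.732 to 0.247 for TCP1, -0.282 to 0.629 for CCT2, -0.468 to 6.19 for CCT3, -1.42 to 0.473 for CCT4, -1.22 to 0.0642 for CCT6A and -0.892 to 0.648 for CCT8. In cells they ran from -0.121 to 0.341 for TCP1, -0.279 to 0.175 for CCT4 and -0.154 to 0.0429 for CCT5, and between EVs and cells from -0.0188 to 0.230 for CCT5.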
